A study of Homo sapiens with 30 samples.

Results

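The 10 genes described here belong to the unfolded protein response of the endoplasmic reticulum (ER): HSPA5, HSP90B1, XBP1, ATF6, ERN1, DNAJB9, SDF2L1, PDIA4, HYOU1 and CRELD2. They were taken by name, with earlier results of these data known, from 52007 genes that 3 count tables have in common. All 10 passed the minimum for testing (a mean normalized count of at least 10) in each table. The tables hold RNA sequencing of 3 established human neuroblastoma lines (SK-N-BE(2)c, NGP and IMR32) transfected with 100 nM of an antisense oligonucleotide (ASO) in Lipofectamine 2000. IMR32 received ASO1, ASO2 or the negative control ASO (NCA), with 4 libraries each. NGP and SK-N-BE(2)c received ASO2, ASO10 or NCA, with 3 libraries each, which makes 30 libraries in 9 groups. In the column labels of NGP and SK-N-BE(2)c, control replicate 1 is spelled NCA, and replicates 2 and 3 are spelled NCA2. They are grouped here by title, and whether NCA2 is another oligonucleotide cannot be told. ASO1, ASO2 and ASO10 are directed at NESPR, a long non-coding RNA of adrenergic neuroblastoma that the series' title links to stress, and each comparison asks how these genes differ when it is targeted. Every group, controls included, had been through lipofection, and no untransfected cells were analysed here. NESPR, as a named gene, was not analysed here, so its knockdown is not reported. The time between transfection and harvest is not given in the sources used here, nor is whether replicates were separate cultures, so p-values measure the spread between these libraries, which may be technical.

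Secreted and membrane proteins fold in the ER with the help of chaperones and of enzymes that form disulfide bonds. When unfolded protein builds up there, 3 membrane sensors respond: ATF6, IRE1 (the product of ERN1) and PERK (the product of EIF2AK3). HSPA5, also called BiP, binds the sensors at rest. ATF6 moves to the Golgi, where proteases release its transcription factor part. IRE1 splices the XBP1 mRNA, so that XBP1 protein becomes an active transcription factor. Both factors switch on chaperones, folding enzymes and components of ER-associated degradation through short promoter motifs called ER stress elements, whereas PERK slows translation and acts through ATF4. The sensors act through proteolysis, splicing and phosphorylation, none of which a gene count records. In particular, a count for XBP1 joins the spliced and unspliced forms.

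The promoters of 6 of the 10 genes hold an ER stress element in the window from 250 bases before to 50 bases after an annotated start (RefSeq, GRCh38.p14). All 10 had such a window. The classical element ERSE was searched on both strands as CCAAT, then 9 bases of any kind, then CCACG, and was present in 27 of 35116 windows (0.0769%). Its relative ERSE-II, searched on both strands as ATTGG, then 1 base of any kind, then CCACG, was present in 19 windows (0.0541%). The matches are shown because these elements are the known binding sites of ATF6 and XBP1 in promoters of this response. Each is printed along the gene's own strand with 12 bases on each side, and capitals mark the motif, which reads as its reverse complement where the match lies on the opposite strand.
HSPA5, ERSE, chr9:125241379-125241421: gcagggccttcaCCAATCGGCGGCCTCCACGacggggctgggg
HSP90B1, first ERSE, chr12:103930204-103930246: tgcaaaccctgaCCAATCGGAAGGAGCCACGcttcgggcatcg
HSP90B1, second ERSE, opposite strand, chr12:103930309-103930351: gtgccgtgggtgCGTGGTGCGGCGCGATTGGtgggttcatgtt
XBP1, ERSE, chr22:28800591-28800633: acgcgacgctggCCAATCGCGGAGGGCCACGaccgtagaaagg
CRELD2, ERSE, opposite strand, chr22:49918542-49918584: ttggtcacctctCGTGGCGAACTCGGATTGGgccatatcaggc
HYOU1, first ERSE-II, opposite strand, chr11:119057368-119057402: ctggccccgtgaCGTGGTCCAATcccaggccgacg
HYOU1, second ERSE-II, opposite strand, chr11:119057262-119057296: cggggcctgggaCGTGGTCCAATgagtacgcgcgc
SDF2L1, ERSE-II, opposite strand, chr22:21642102-21642136: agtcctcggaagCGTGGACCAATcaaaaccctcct
All 8 matches lie upstream of the start, between bases -194 and -34 counted from it. The motif TGACGTGG, the core of the element named UPRE, searched on both strands, was present in 256 windows (0.729%) and in 1 of these genes, HYOU1, where it overlaps part of the first ERSE-II. Neither ERSE form was found in the windows of ATF6, ERN1, DNAJB9 and PDIA4, which says only that these letters are not there. ALG12 and CRELD2 lie head to head, and the CRELD2 match falls in the ALG12 window too.

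Reads recovered from the deposited normalized counts numbered 9393587 to 13932379 per library for IMR32, 11591178 to 13795561 for NGP and 11497829 to 15060356 for SK-N-BE(2)c. Each of the 30 libraries correlated best, on average, with its own group. All 8 adrenergic neuroblastoma markers used (among them HAND2, GATA3 and DBH) had means of at least 10 in every group. CD3E and KRT5, markers of T cells and of basal epithelium, were at 0 in every library, but other markers on those lists moved. The sum of 3 leukocyte markers, nearly all from CD14, was 25.1 to 28.9 with ASO2 and 19.7 to 23.4 with ASO10 against 6.15 to 20.4 with NCA for NGP, and 38.7 to 56.2 and 36.8 to 41.3 against 27.2 to 29.9 for SK-N-BE(2)c. IMR32 had leukocyte sums of 2.74 to 14.2. The sum of 3 epithelial markers, mostly EPCAM, was 17.75 to 27.5 with ASO10 against 7.28 to 11.3 with NCA for NGP, and 5.11 to 13.95 against 1.05 to 3.025 for SK-N-BE(2)c.

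Sums of fibroblast and adrenergic markers rested on a few genes that did not move alike. The sum of 6 fibroblast markers was higher with ASO2 than with NCA for NGP (663.8 to 714.9 against 438.6 to 469.7 normalized counts), where the mean of LUM went from 69.3 to 203.7 and that of COL1A1 from 164.7 to 234.0, with PDGFRB at 163.9 and 161.7. It was also higher with ASO2 for IMR32 (1195 to 1309 against 1024 to 1114), with COL1A1 up from 681.9 to 889.7 and PDGFRB down from 390.5 to 356.0. For SK-N-BE(2)c the sum was 872.9 to 945.4 with ASO2 and 686.5 to 855.6 with ASO10 against 867.1 to 927.1, and with ASO2 LUM went from 114.6 to 246.1 while PDGFRB went from 766.0 to 631.0. The adrenergic sum was lower with ASOs than with NCA for NGP (66290 to 71350 against 73640 to 76090) and for SK-N-BE(2)c (34280 to 38190 against 46310 to 52380). In IMR32 it was 44020 to 49380 with ASO1, 46970 to 52410 with ASO2 and 50160 to 52730 with NCA. MYCN made up most of that sum, and its mean went from 30120 to 19670 with ASO2 for SK-N-BE(2)c, where GATA3 (2018 to 2285), ISL1 (659.6 to 976.1) and DBH (3614 to 4346) went the other way. With ASO10 for NGP, MYCN went from 45460 to 47970 and HAND2 from 12760 to 8447. None of these marker differences was tested. The part of these markers in the results was not tested. In bulk RNA, fewer cells of a type and less RNA per cell cannot be told apart.

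In the control libraries the 2 large chaperones led. Per kilobase of annotated exon, genes can be compared only roughly, since the lengths of the transcripts present were not measured. On this scale NCA levels in IMR32 were highest for HSP90B1 (1491 ± 21.3 normalized counts per kilobase, SD, n = 4) and HSPA5 (712.6 ± 41.6). They were lowest for ERN1 (47.2 ± 3.10) and CRELD2 (41.7 ± 6.44), whose libraries overlapped. HSPA5 led for NGP (940.0 ± 47.7, n = 3) and for SK-N-BE(2)c (2293 ± 206, n = 3), each time above HSP90B1 without overlap. ERN1 was lowest in both of these lines (20.2 ± 1.64 and 18.6 ± 1.00). The rank of HYOU1 differed most between lines: it stood at 195.8 ± 6.31 in IMR32 and 174.4 ± 7.75 in NGP, below ATF6 in the first with overlapping libraries and below SDF2L1 in the second. It reached 729.5 ± 25.4 in SK-N-BE(2)c and overlapped PDIA4 (705.3 ± 52.0). The lines were normalized apart, so these are levels set side by side and no difference between lines was tested on them.

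Against NCA the 10 genes did not move as a block. ATF6 fell in all 6 comparisons, HSPA5 and DNAJB9 rose in 5, and XBP1, ERN1 and HYOU1 rose in 4. SDF2L1 fell in 3, CRELD2 rose in 2, PDIA4 rose in 1 and fell in 2, and HSP90B1 rose in 2 and fell in 2. Calls are those of limma at an adjusted p (Benjamini-Hochberg, all genes tested in the line) under 0.05. Log2 fold changes are on the log2(normalized count + 1) scale, on which changes of low genes come out too small, and are given with their standard error. No called change reached 1 on the log2 scale.

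The counts of called genes have to be read against how many of all genes were called. With ASO1 in IMR32, 4 of the 10 genes were called, 3 higher and 1 lower, beside 28.0% of 17309 genes. ASO2 in IMR32 gave 7, 6 higher and 1 lower, beside 32.4%. In NGP, 9 were called with ASO2 (6 higher, 3 lower) beside 58.7% of 14440 genes, and 7 with ASO10 (4 higher, 3 lower) beside 54.4%. With ASO2, SK-N-BE(2)c had 6 called (4 higher, 2 lower) beside 67.0% of 13556 genes, and 7 with ASO10 (4 higher, 3 lower) beside 58.9%. The median log2 fold change of the 10 genes was 0.09 and 0.18 with ASO1 and ASO2 in IMR32, 0.23 and 0.06 with ASO2 and ASO10 in NGP, and 0.13 and 0.01 with ASO2 and ASO10 in SK-N-BE(2)c. Over all genes tested the corresponding medians were between -0.03 and 0.01. The 2 ASOs of a line share their control libraries, so their calls are not independent of each other. In IMR32 a fit with the replicate number as a block called 6 genes with ASO1, adding ERN1 (adjusted p = 0.0127, limma) and PDIA4 (adjusted p = 0.0318, limma). Deviations of same-numbered ASO1 and NCA libraries correlated at 0.112 to 0.564 there among genes with a mean of at least 50. At the minimum of 10 used in the test they correlated at 0.055 to 0.318. ASO2 libraries, also in that fit, had values close to 0 with each of the other groups, so whether the numbers pair the libraries is open.

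**Figure D1:**
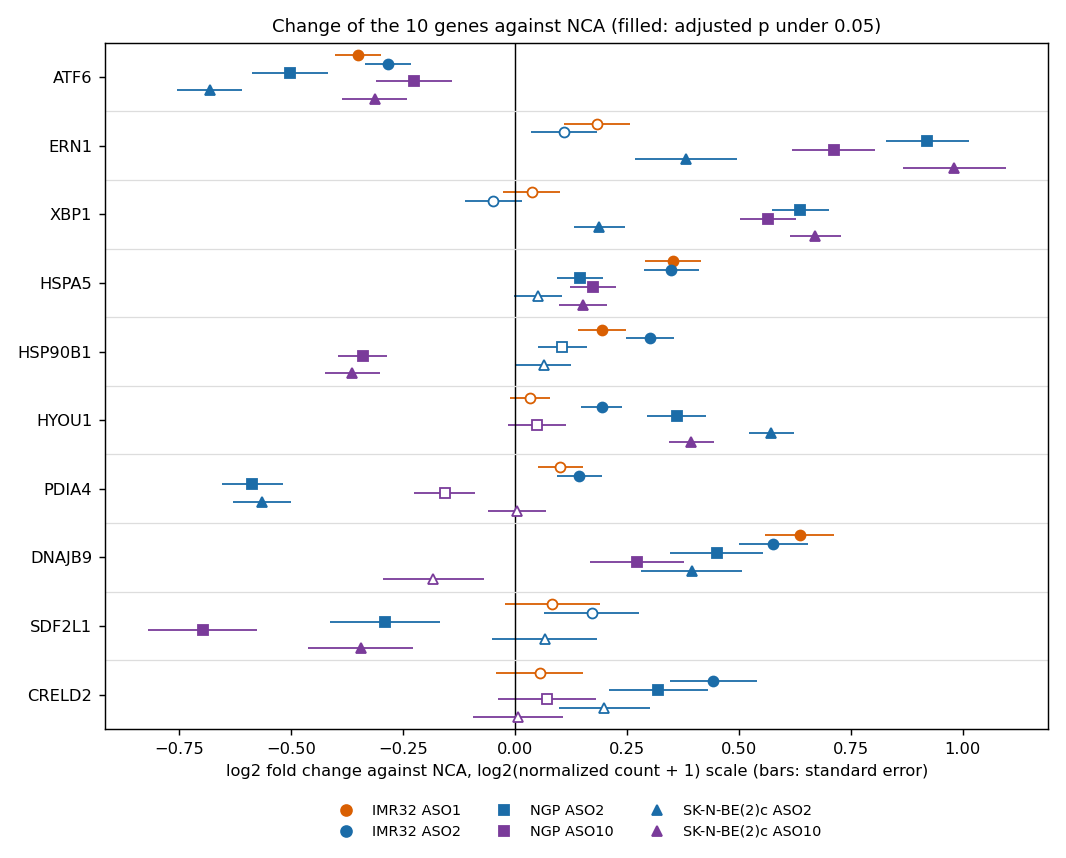
Log2 fold change of each gene against NCA (x axis, log2(normalized count + 1) scale, bars are standard errors) for the 6 comparisons, with line shown by marker shape, ASO by colour, and filled markers for an adjusted p under 0.05. ATF6 lies left of 0 in all 6, from -0.68 to -0.23, whereas PDIA4, HSP90B1 and SDF2L1 lie on both sides.

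ATF6, the sensor cleaved in the Golgi (chr1:161766294-161964070, GRCh38, plus strand), was the one gene called in the same direction in all 6 comparisons. In IMR32 its normalized counts were 1628, 1618, 1494 and 1556 with NCA, 1344, 1185, 1190 and 1220 with ASO1, and 1364, 1250, 1302 and 1256 with ASO2. Every ASO library lay below every control, and ATF6 fell by 0.35 ± 0.05 with ASO1 (adjusted p = 3.11e-05, limma) and by 0.28 ± 0.05 with ASO2 (adjusted p = 0.00032, limma). NGP had 841.3, 895.9 and 1062 with NCA, 726.9, 619.1 and 625.2 with ASO2, and 753.0, 783.6 and 848.1 with ASO10. The ASO2 libraries lay below the controls, with a fall of 0.50 ± 0.08 (adjusted p = 1.56e-05, limma). One ASO10 library lay inside the control range, and the fall of 0.23 ± 0.08 (adjusted p = 0.0264, limma) was not called without NCA replicate 3 (-0.13, adjusted p = 0.165), nor without ASO10 replicate 1 or 2 (log2 fold changes of -0.19 and -0.22). SK-N-BE(2)c libraries had 1156, 1242 and 1376 with NCA, 722.6, 798.6 and 827.8 with ASO2, and 1075, 956.4 and 1001 with ASO10. All ASO libraries were below the controls, by 0.68 ± 0.07 with ASO2 (adjusted p = 3.27e-09, limma) and 0.31 ± 0.07 with ASO10 (adjusted p = 0.000556, limma) on the log2 scale. A processed pseudogene, AL391825.1, lies within the ATF6 locus on the same strand and had means of 49.8 to 59.7 in the 3 lines.

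ERN1, which encodes IRE1, a kinase and endoribonuclease (chr17:64039142-64130819, GRCh38, minus strand), rose in NGP and SK-N-BE(2)c. Libraries of NGP had 237.6, 218.0 and 202.0 with NCA, 440.0, 401.9 and 404.9 with ASO2, and 368.9, 359.5 and 349.1 with ASO10. The groups did not overlap, and ERN1 was 0.92 ± 0.09 higher with ASO2 (adjusted p = 5.78e-09, limma) and 0.71 ± 0.09 higher with ASO10 (adjusted p = 4.44e-07, limma). SK-N-BE(2)c libraries had 214.5, 198.6 and 193.7 with NCA, 276.2, 251.1 and 263.9 with ASO2, and 317.1, 443.9 and 455.1 with ASO10. ERN1 was 0.98 ± 0.11 higher with ASO10 (adjusted p = 2.58e-08, limma), although 1 of the 3 ASO10 libraries lay well below the other two. With ASO2 it was 0.38 ± 0.11 higher (adjusted p = 0.00445, limma). In IMR32 the counts were 562.8, 494.7, 494.2 and 497.9 with NCA, 528.4, 617.5, 657.8 and 530.5 with ASO1, and 509.6, 539.5, 595.5 and 567.9 with ASO2. Here the groups overlapped and neither difference was called (0.18 ± 0.07 with ASO1, adjusted p = 0.0708, and 0.11 ± 0.07 with ASO2, adjusted p = 0.273, limma). The control with the high value decided this in part: without NCA replicate 1 the ASO1 difference was 0.23 (adjusted p = 0.0288, limma), and it was also called without ASO1 replicate 1 or 4.

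XBP1, the target of IRE1 and a transcription factor gene (chr22:28794555-28800597, GRCh38, minus strand), rose with each ASO in NGP and SK-N-BE(2)c and was not called in IMR32, whose effects were not tested against those of the other lines. In IMR32 it had 1325, 1157, 1145 and 1126 with NCA, 1316, 1205, 1249 and 1108 with ASO1, and 1241, 1155, 1141 and 1056 with ASO2. The groups overlapped, replicate 1 was the highest library in each group, and neither log2 fold change was called (0.04 ± 0.06 and -0.05 ± 0.06). NGP had 946.9, 893.2 and 905.6 with NCA, 1475, 1333 and 1468 with ASO2, and 1304, 1351 and 1410 with ASO10. XBP1 was thus 0.64 ± 0.06 higher with ASO2 (adjusted p = 4.44e-09, limma) and 0.57 ± 0.06 higher with ASO10 (adjusted p = 3.81e-08, limma), with no overlap. SK-N-BE(2)c had 1768, 1732 and 1791 with NCA, 2061, 1898 and 2077 with ASO2, and 2668, 2931 and 2835 with ASO10. The rise was 0.67 ± 0.06 with ASO10 (adjusted p = 5.83e-11, limma) and 0.19 ± 0.06 with ASO2 (adjusted p = 0.00453, limma).

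The scaling of the SK-N-BE(2)c libraries bears on the ASO2 values of that line. Setting every library to the same total in place of the authors' scaling shifted the median of all genes by -0.14 in ASO2 against NCA, and by -0.11 in ASO2 against ASO10. The share of called genes that were higher with ASO2 than with NCA then went from 50.2% to 38.4%. Under that scaling XBP1 (0.05, adjusted p = 0.425, limma) and ERN1 (0.24, adjusted p = 0.0611, limma) were no longer called in ASO2 against NCA, and DNAJB9 stood at 0.26 (adjusted p = 0.0456, limma). Less the median of all genes in the authors' scaling, the 3 changes were 0.20, 0.40 and 0.41. In NGP the same step took HSPA5 with ASO2 to 0.07 (adjusted p = 0.216, limma) and CRELD2 with ASO2 to 0.25 (adjusted p = 0.054, limma). ATF6, PDIA4 and HYOU1 with ASO2 were called under both scalings in each of these lines.

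A ratio of 2 genes within a library does not depend on its scaling. Counts of ERN1 divided by those of ATF6 were 0.326 ± 0.0169 with NCA in IMR32 (SD, n = 4), 0.476 ± 0.0742 with ASO1 and 0.429 ± 0.0383 with ASO2. In NGP the ratio was 0.239 ± 0.0463 with NCA (n = 3), 0.634 ± 0.0249 with ASO2 and 0.453 ± 0.0394 with ASO10. SK-N-BE(2)c had 0.162 ± 0.0225 with NCA, 0.339 ± 0.038 with ASO2 and 0.405 ± 0.0951 with ASO10. Every ASO library was above every control library of its line. The ratio was chosen after the values of both genes had been seen and was given no test. Because ATF6 fell in all 6 comparisons, the ratio alone does not show a rise of ERN1, and in IMR32 only ATF6 was called.

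**Figure D2:**
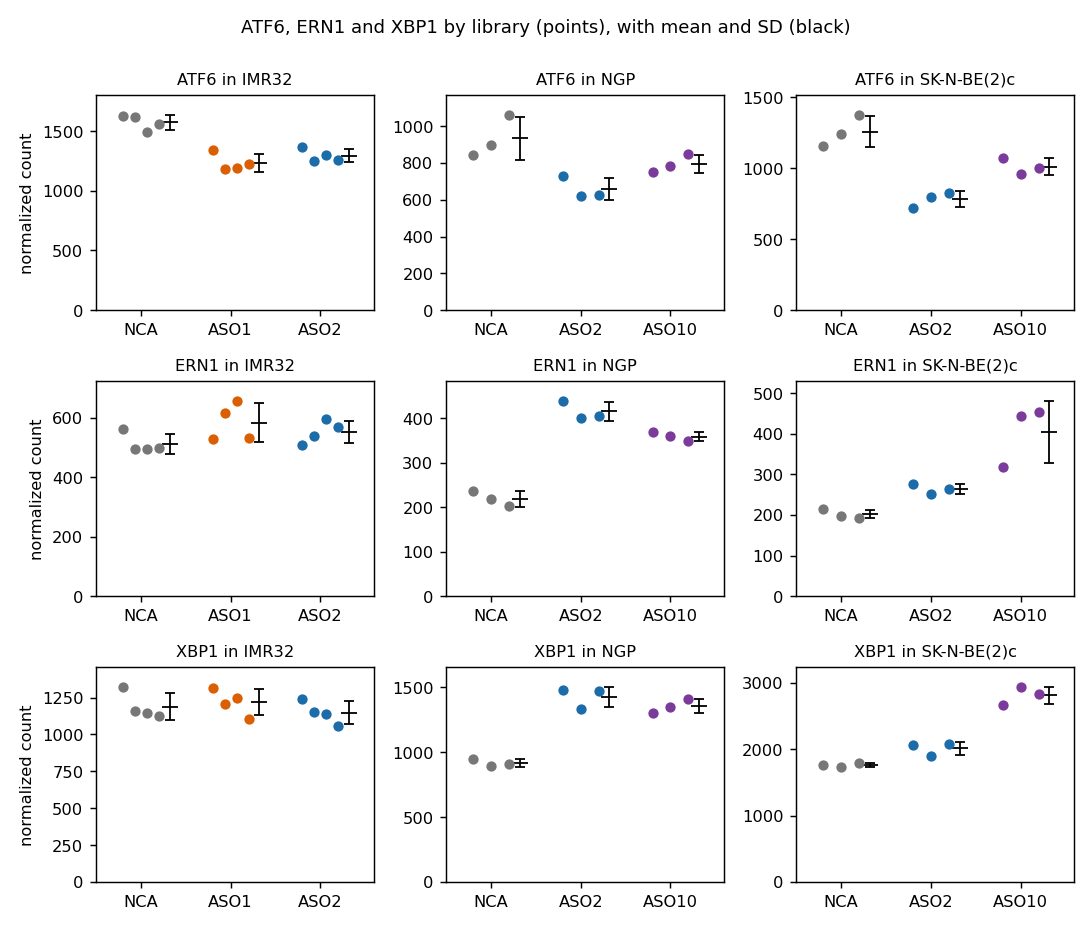
Normalized counts (y axis, from 0) of ATF6, ERN1 and XBP1 in every library of the 3 lines, with the group mean and SD in black. ATF6 is lower with each ASO, while ERN1 and XBP1 rise in NGP and SK-N-BE(2)c and overlap the controls in IMR32.

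HSPA5, the ER member of the HSP70 family and the gene most often used to read this response (chr9:125234853-125241330, GRCh38, minus strand), rose most in IMR32. Its counts there were 2574, 2954, 2858 and 2753 with NCA, 3945, 3683, 3391 and 3230 with ASO1, and 3442, 3469, 3377 and 3910 with ASO2. All 8 ASO libraries exceeded the controls, by 0.35 ± 0.06 with ASO1 (adjusted p = 0.000216, limma) and 0.35 ± 0.06 with ASO2 (adjusted p = 0.000256, limma). In NGP the counts were 3707, 3473 and 3841 with NCA, 3917, 4118 and 4142 with ASO2, and 3981, 4331 and 4114 with ASO10. The differences were 0.14 ± 0.05 (adjusted p = 0.019, limma) and 0.17 ± 0.05 (adjusted p = 0.00643, limma), and the first was not called without any 1 of 3 libraries (ASO2 replicates 2 and 3, NCA replicate 2; log2 fold changes of 0.10 to 0.13). SK-N-BE(2)c had 9199, 8063 and 9619 with NCA, 9108, 9479 and 9185 with ASO2, and 9911, 9970 and 9900 with ASO10. With ASO2 the libraries lay within the control range (0.05 ± 0.05, adjusted p = 0.409, limma). The ASO10 libraries were close to each other and above the controls (0.15 ± 0.05, adjusted p = 0.0165, limma), but without NCA replicate 2, the lowest control, the difference was 0.08 (adjusted p = 0.23, limma).

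HSP90B1, or GRP94, the HSP90 of the ER (chr12:103930107-103953645, GRCh38, plus strand), changed in opposite directions in IMR32 and under ASO10. In IMR32 it had 6883, 7105, 6958 and 7059 with NCA, 8899, 8011, 7802 and 7402 with ASO1, and 8477, 8692, 8160 and 9230 with ASO2. The controls lay within a narrow range and all ASO libraries above it, by 0.19 ± 0.05 with ASO1 (adjusted p = 0.00883, limma) and 0.30 ± 0.05 with ASO2 (adjusted p = 0.000233, limma). NGP had 3175, 3011 and 3396 with NCA, 3536, 3345 and 3418 with ASO2, and 2509, 2407 and 2650 with ASO10. Only the ASO10 libraries stood apart from the controls in that line, with a fall of 0.34 ± 0.06 (adjusted p = 1.1e-05, limma). Libraries of SK-N-BE(2)c had 8106, 7636 and 9416 with NCA, 8202, 8869 and 9150 with ASO2, and 6772, 6069 and 6661 with ASO10. Again the ASO10 libraries lay below the rest, by 0.36 ± 0.06 against NCA (adjusted p = 1.26e-05, limma). The ASO2 differences, 0.11 ± 0.06 for NGP and 0.06 ± 0.06 for SK-N-BE(2)c, were not called with all libraries. They were called without NCA replicate 3 of the line (0.15 in each, adjusted p = 0.0159 and 0.0207, limma). With libraries set to the same total they were 0.04 (adjusted p = 0.598) and -0.07 (adjusted p = 0.293, limma), neither called. Without NCA replicate 2 the SK-N-BE(2)c value was -0.0008 (adjusted p = 0.992, limma). C12orf73, on the opposite strand of the locus, had means of 125.5 to 191.9.

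HYOU1, or GRP170, a large HSP70-like chaperone that exchanges nucleotide on HSPA5 (chr11:119044189-119057202, GRCh38, minus strand), rose most in SK-N-BE(2)c, where its level was also highest. That line had 5764, 5682 and 5392 with NCA, 8506, 8130 and 8405 with ASO2, and 6971, 7739 and 7422 with ASO10. The 3 groups were apart, with ASO2 0.57 ± 0.05 above NCA (adjusted p = 6.12e-11, limma) and ASO10 0.39 ± 0.05 above it (adjusted p = 1.23e-07, limma). In NGP the counts were 1319, 1410 and 1297 with NCA, 1745, 1636 and 1792 with ASO2, and 1484, 1425 and 1265 with ASO10. ASO2 libraries were above the controls (0.36 ± 0.07, adjusted p = 3.99e-05, limma), and ASO10 libraries overlapped them (0.05 ± 0.07, adjusted p = 0.542, limma). IMR32 had 1525, 1562, 1491 and 1448 with NCA, 1623, 1499, 1481 and 1566 with ASO1, and 1709, 1768, 1715 and 1698 with ASO2. There too ASO2 was above the controls (0.19 ± 0.05, adjusted p = 0.00264, limma) and ASO1 overlapped them (0.03 ± 0.05, adjusted p = 0.631, limma).

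PDIA4, a protein disulfide isomerase also known as ERp72 (chr7:149003062-149028641, GRCh38, minus strand), fell with ASO2 in NGP and SK-N-BE(2)c. In NGP it had 1099, 1145 and 1060 with NCA, 713.9, 794.8 and 693.0 with ASO2, and 972.1, 1030 and 960.6 with ASO10. The ASO2 libraries were far below the controls (fold change of -0.59 ± 0.07 on the log2 scale, adjusted p = 7.2e-08, limma). The ASO10 libraries also lay just below them, at -0.16 ± 0.07, which missed the threshold (adjusted p = 0.0555, limma) and passed it without any 1 of 3 libraries (adjusted p = 0.0273 to 0.0472, limma, for NGP ASO2 replicate 2, ASO10 replicate 2 and NCA replicate 3) and with libraries set to the same total (-0.17, adjusted p = 0.0432, limma). Libraries of SK-N-BE(2)c had 2387, 2116 and 2431 with NCA, 1649, 1634 and 1406 with ASO2, and 2325, 2254 and 2360 with ASO10. ASO2 again stood apart (-0.57 ± 0.06, adjusted p = 1.13e-08, limma), and ASO10 lay within the control range (0.00 ± 0.06, adjusted p = 0.967, limma). In IMR32 the counts were 1773, 1728, 1790 and 1782 with NCA, 2079, 1905, 1807 and 1812 with ASO1, and 1983, 2048, 1839 and 1949 with ASO2. All ASO libraries were above the controls by small amounts, 0.10 ± 0.05 with ASO1 (adjusted p = 0.142, or 0.0383 with libraries set to the same total, limma) and 0.14 ± 0.05 with ASO2 (adjusted p = 0.0333, limma). The second call was lost without any 1 of 6 of the 8 libraries compared (log2 fold changes of 0.12 to 0.15, adjusted p = 0.056 to 0.11, limma; all but ASO2 replicate 3 and NCA replicate 1). It was also lost with libraries set to the same total (0.11, adjusted p = 0.0562, limma) and with no minimum on low values (adjusted p = 0.0801, limma).

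**Figure D3:**
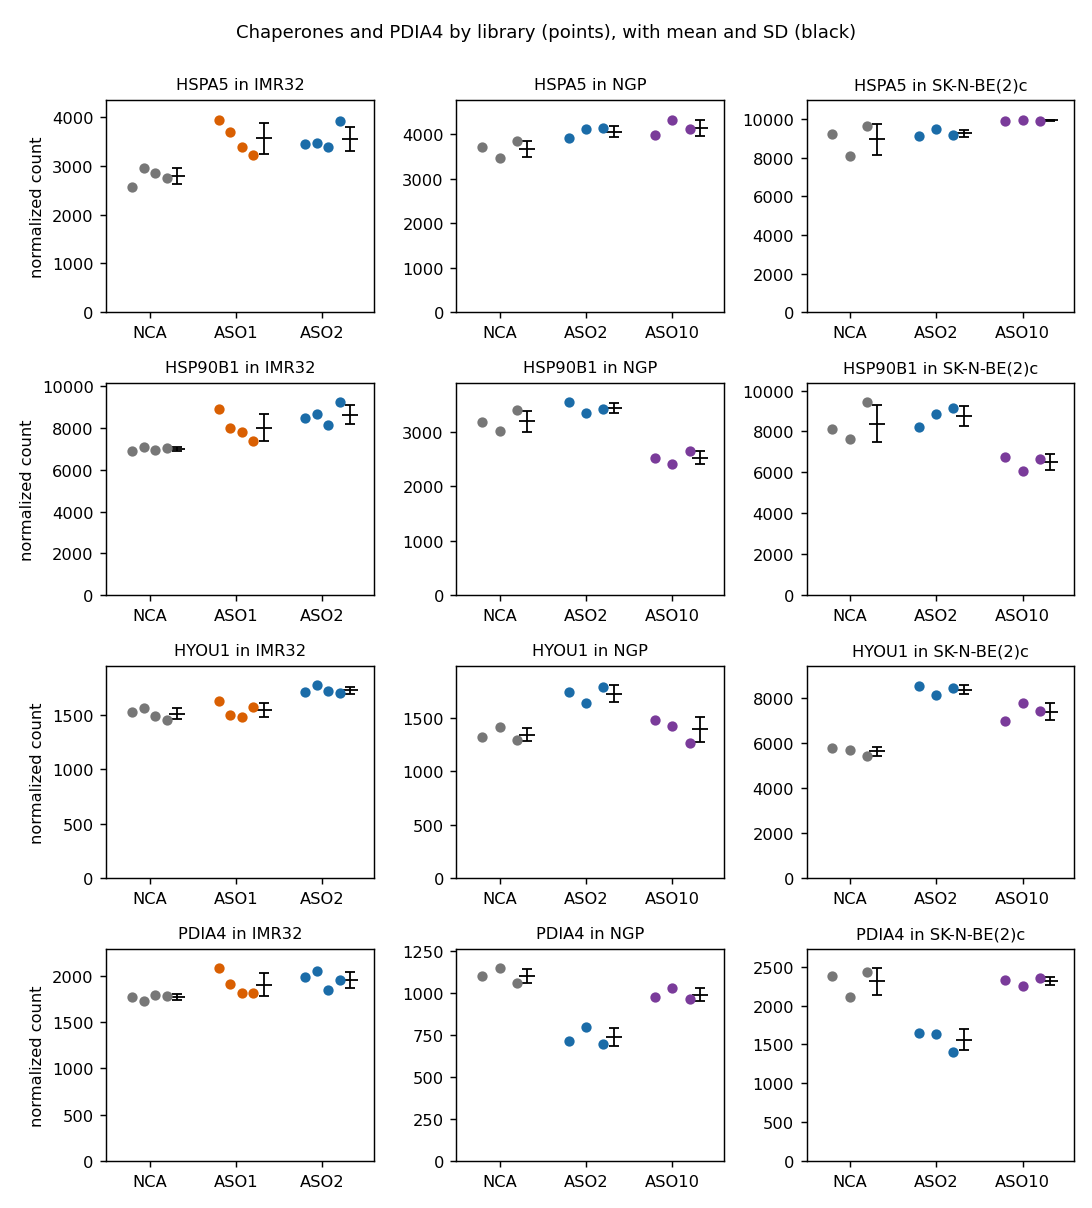
Normalized counts (y axis, from 0) of HSPA5, HSP90B1, HYOU1 and PDIA4 in every library of the 3 lines, with the group mean and SD in black. In NGP as in SK-N-BE(2)c, PDIA4 is low with ASO2 and HSP90B1 low with ASO10, and HSPA5 differs most from its controls in IMR32.

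DNAJB9, or ERdj4, a J-domain partner of HSPA5 (chr7:108569568-108574850, GRCh38, plus strand), had the largest rise of the 10 genes in IMR32. Counts were 181.7, 203.5, 224.0 and 217.7 with NCA, 316.7, 340.4, 333.6 and 294.9 with ASO1, and 304.4, 297.6, 295.5 and 336.0 with ASO2. Every ASO library exceeded every control, by 0.64 ± 0.08 with ASO1 (adjusted p = 3.45e-06, limma) and 0.58 ± 0.08 with ASO2 (adjusted p = 1.38e-05, limma). NGP had 328.7, 243.7 and 327.2 with NCA, 404.8, 429.5 and 386.0 with ASO2, and 338.3, 368.0 and 371.8 with ASO10. The ASO2 rise was 0.45 ± 0.10 (adjusted p = 0.000642, limma). That with ASO10, 0.27 ± 0.10 (adjusted p = 0.0297, limma), turned on the low control: without NCA replicate 2 it was 0.13 (adjusted p = 0.274, limma), and it was not called without ASO10 replicate 2 or 3 either. In SK-N-BE(2)c the counts were 325.4, 243.0 and 364.3 with NCA, 423.2, 388.0 and 399.5 with ASO2, and 248.3, 289.5 and 273.6 with ASO10. NCA replicate 2 was again the low control. With it, ASO2 was 0.39 ± 0.11 higher (adjusted p = 0.00306, limma) and ASO10 was not called (-0.18 ± 0.11, adjusted p = 0.166, limma). Without it, ASO2 was at 0.23 (adjusted p = 0.0653, limma) and ASO10 was called lower at -0.35 (adjusted p = 0.00711, limma). PNPLA8 and THAP5 lie on the opposite strand of the DNAJB9 locus with means of 236.3 to 413.6, close to those of DNAJB9, and whether the counting used strand is not given in the sources used here.

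SDF2L1, a small ER protein that binds J-domain chaperones (chr22:21642261-21644298, GRCh38, plus strand), was lower in 3 comparisons. NGP had 313.2, 285.3 and 216.4 with NCA, 208.9, 221.2 and 228.0 with ASO2, and 176.3, 153.1 and 166.7 with ASO10. The ASO10 libraries were below all controls (-0.70 ± 0.12, adjusted p = 3.17e-05, limma). The ASO2 libraries overlapped the lowest control, and their call (-0.29 ± 0.12, adjusted p = 0.0442, limma) was lost without any 1 of 5 of the 6 libraries compared, down to -0.18 (adjusted p = 0.272) without NCA replicate 1, and kept at -0.45 (adjusted p = 0.00143) without NCA replicate 3. Counts for SK-N-BE(2)c were 390.3, 270.2 and 298.8 with NCA, 344.7, 364.4 and 287.9 with ASO2, and 268.8, 232.2 and 246.0 with ASO10. The fall with ASO10 (-0.34 ± 0.12, adjusted p = 0.0131, limma) was not called without NCA replicate 1 (-0.19, adjusted p = 0.164) or without ASO10 replicate 2 (-0.30, adjusted p = 0.0569). In IMR32 the counts were 113.3, 133.2, 106.5 and 123.1 with NCA, 150.6, 115.5, 110.9 and 129.5 with ASO1, and 140.3, 134.7, 122.2 and 138.3 with ASO2. These overlapped, and neither difference was called (0.08 ± 0.11 and 0.17 ± 0.11). Its counts rest on 96 to 402 reads a library.

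CRELD2, a secreted ER protein with EGF-like domains that is induced in ER stress (chr22:49918167-49927540, GRCh38, plus strand), rose with ASO2 in IMR32 and NGP. IMR32 had 172.3, 223.3, 213.1 and 252.6 with NCA, 225.4, 204.5, 231.3 and 226.4 with ASO1, and 257.9, 324.9, 286.5 and 296.0 with ASO2. The ASO2 libraries were above all controls (0.44 ± 0.10, adjusted p = 0.00171, limma) and the ASO1 libraries lay within their range (0.06 ± 0.10, adjusted p = 0.72, limma). In NGP the counts were 190.3, 207.4 and 176.4 with NCA, 214.4, 247.8 and 255.9 with ASO2, and 194.6, 204.5 and 203.2 with ASO10. The ASO2 rise (0.32 ± 0.11, adjusted p = 0.0147, limma) was not called without any 1 of 3 libraries (ASO2 replicates 2 and 3, NCA replicate 3; 0.26 to 0.29). Counts for SK-N-BE(2)c were 364.2, 318.6 and 343.1 with NCA, 424.3, 406.1 and 350.3 with ASO2, and 295.7, 360.1 and 379.4 with ASO10. Groups overlapped there and no difference was called (0.20 ± 0.10 with ASO2, adjusted p = 0.0814, and 0.01 ± 0.10 with ASO10, adjusted p = 0.958, limma). The ASO2 value became 0.28 (adjusted p = 0.0252, limma) without ASO2 replicate 3, and 0.06 (adjusted p = 0.6, limma) with libraries set to the same total. ALG12, which overlaps the CRELD2 locus on the opposite strand, had means of 182.7 to 381.5, close to those of CRELD2. Whether the counting used strand is not given in the sources used here.

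**Figure D4:**
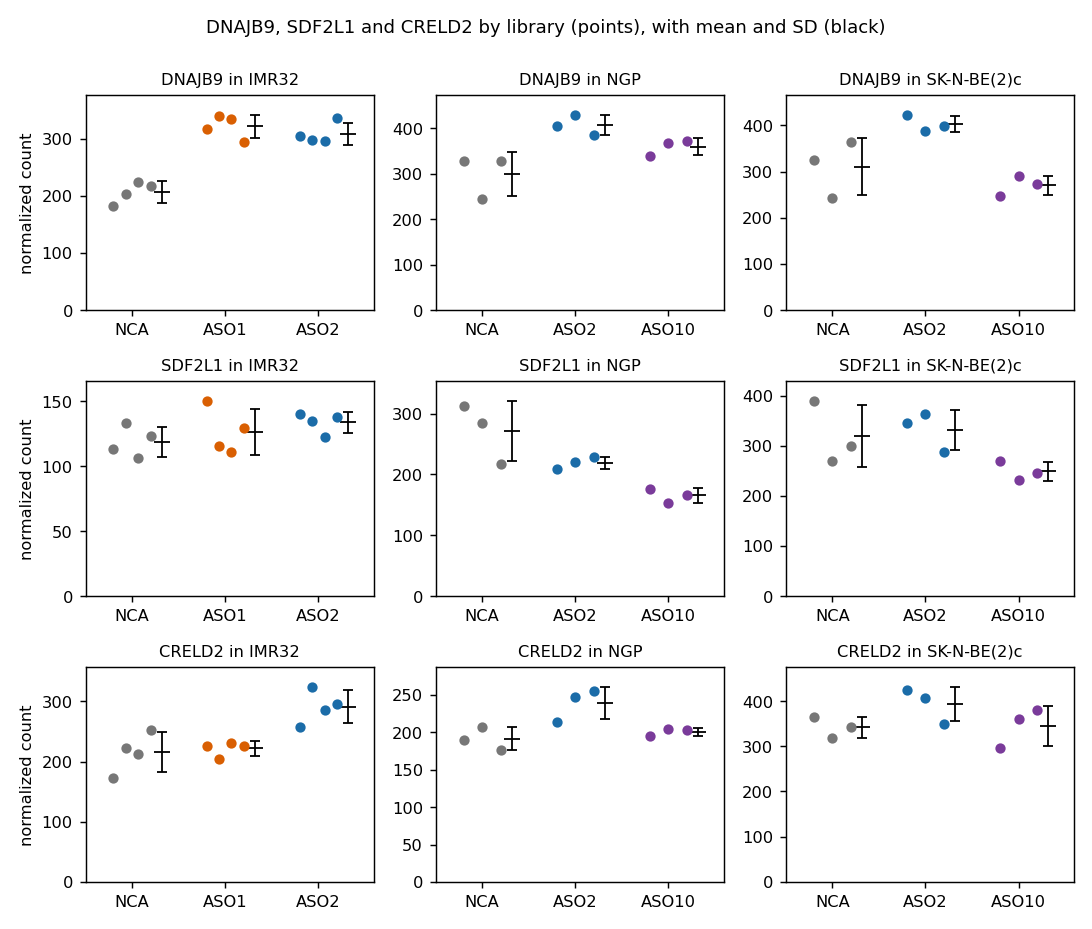
Normalized counts (y axis, from 0) of DNAJB9, SDF2L1 and CRELD2 in every library of the 3 lines, with the group mean and SD in black. DNAJB9 with both ASOs in IMR32 lies above its controls, and SDF2L1 with ASO10 in NGP lies below them.

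The 2 ASOs of a line were also compared with each other, a difference in which the control means have no part. The control libraries still entered the estimate of the spread, since all groups of a line were fitted together. ASO1 and ASO2 differed in IMR32 for 2 of the 10 genes, beside 21.9% of all genes: HYOU1 was 0.16 ± 0.05 lower with ASO1 (adjusted p = 0.0143, limma) and CRELD2 0.39 ± 0.10 lower (adjusted p = 0.00678, limma). The HYOU1 call was lost without ASO1 replicate 3 (-0.14, adjusted p = 0.0572) and with libraries set to the same total (-0.11, adjusted p = 0.0617), a step that moved the share of all called genes that were higher from 41.8% to 59.8%. HSP90B1, at -0.11 ± 0.05, was called without ASO1 replicate 1 (-0.16, adjusted p = 0.0138, limma). With libraries set to the same total HSP90B1 was at -0.05 (adjusted p = 0.45, limma). In NGP, 5 genes differed between ASO2 and ASO10 beside 58.6% of all genes, and in SK-N-BE(2)c 8 beside 65.4%. HSP90B1 was higher with ASO2 than with ASO10 by 0.45 ± 0.06 in NGP (adjusted p = 1.53e-07, limma) and 0.43 ± 0.06 in SK-N-BE(2)c (adjusted p = 7.94e-07, limma). PDIA4 was lower with ASO2, by log2 fold changes of -0.43 ± 0.07 and -0.57 ± 0.06 (adjusted p = 7.46e-06 and 1.1e-08, limma). ATF6 was also lower with ASO2 in both, at -0.28 ± 0.08 and -0.37 ± 0.07 (adjusted p = 0.00672 and 6.92e-05, limma). SDF2L1 was higher by 0.41 ± 0.12 in each line (adjusted p = 0.00603 and 0.00309, limma), and HYOU1 by 0.31 ± 0.07 and 0.18 ± 0.05 (adjusted p = 0.000219 and 0.00258, limma). The SK-N-BE(2)c value of HYOU1 was 0.07 (adjusted p = 0.24) with libraries set to the same total, where the share of higher calls over all genes went from 52.9% to 42.3%.

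Another 3 genes separated the 2 ASOs in SK-N-BE(2)c. ERN1 and XBP1 were lower with ASO2 than with ASO10 (-0.60 ± 0.11, adjusted p = 4.03e-05, and -0.48 ± 0.06, adjusted p = 1.95e-08, limma), and DNAJB9 was higher (0.58 ± 0.11, adjusted p = 5.7e-05, limma). In NGP the same contrasts were 0.21 ± 0.09 for ERN1 (adjusted p = 0.0551), 0.07 ± 0.06 for XBP1 (adjusted p = 0.338) and 0.18 ± 0.10 for DNAJB9 (adjusted p = 0.147, limma). ERN1 and CRELD2 (0.25 ± 0.11, adjusted p = 0.0544) were called there without NCA replicate 3 (adjusted p = 0.0335 and 0.0399, limma), and CRELD2 also without ASO2 replicate 1, at 0.33. In SK-N-BE(2)c, CRELD2 (0.19 ± 0.10, adjusted p = 0.0951) was called without ASO2 replicate 3 or ASO10 replicate 3, and HSPA5 (-0.10 ± 0.05, adjusted p = 0.0993, limma) with libraries set to the same total (-0.21, adjusted p = 0.000895), by edgeR (adjusted p = 0.0277) and by DESeq2 (adjusted p = 0.0363). Fitting only the groups compared, without the controls, called ERN1 and CRELD2 in NGP (adjusted p = 0.0288 and 0.0425, limma). That fit also called HSPA5 in SK-N-BE(2)c (adjusted p = 0.0434, limma). With libraries set to the same total, CRELD2 was at 0.19 in NGP (adjusted p = 0.144, limma) and 0.08 in SK-N-BE(2)c (adjusted p = 0.501, limma). ERN1 in NGP was then at 0.15 (adjusted p = 0.173, limma), and none of these was called.

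**Figure D5:**
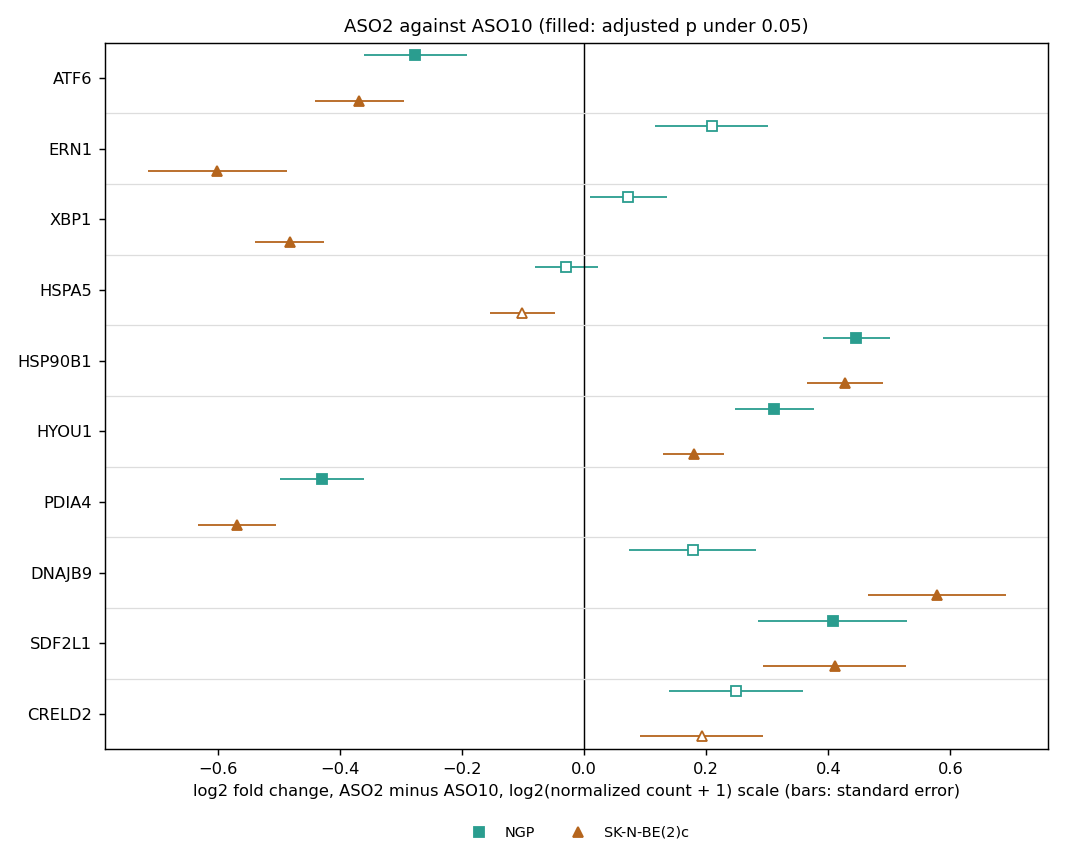
Log2 fold change of ASO2 against ASO10 for each gene (x axis, log2(normalized count + 1) scale, bars are standard errors) in NGP and SK-N-BE(2)c, with filled markers for an adjusted p under 0.05. HSP90B1 and SDF2L1 lie right of 0 and PDIA4 and ATF6 left of it in both lines, whereas ERN1 and XBP1 lie left of 0 in SK-N-BE(2)c only.

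Whether an ASO acted with the same size in NGP and SK-N-BE(2)c was tested as the difference of the 2 effects in a joint fit of 12637 genes. For ASO2 the effect differed for 2 of the 10 genes, beside 19.9% of all genes. XBP1 rose less in SK-N-BE(2)c (0.19 against 0.64, a difference of -0.45 ± 0.08, adjusted p = 0.000241, limma), and so did ERN1 (0.38 against 0.92, a difference of -0.54 ± 0.15, adjusted p = 0.0124, limma). For ASO10 it differed for 1, beside 19.2%: HYOU1 was 0.39 higher in SK-N-BE(2)c and 0.05 in NGP, a difference of 0.34 ± 0.08 (adjusted p = 0.00296, limma). DNAJB9 under ASO10 was close to the threshold, with a difference of -0.46 ± 0.17 (adjusted p = 0.0531, limma). It passed without NGP NCA replicate 1 or 3 and without SK-N-BE(2)c NCA replicate 2 (-0.62, adjusted p = 0.00607). Under ASO2, HYOU1 had a difference of 0.21 ± 0.08 (adjusted p = 0.0599, limma), which passed without any 1 of 3 NGP libraries (adjusted p = 0.0337 to 0.0492). SDF2L1 (0.36 under ASO2, 0.35 under ASO10) passed without NGP NCA replicate 3 (0.51 under each, adjusted p = 0.0295 and 0.0299) or SK-N-BE(2)c NCA replicate 1, and ERN1 under ASO10 (0.27, adjusted p = 0.224) without SK-N-BE(2)c ASO10 replicate 1 (0.44, adjusted p = 0.0222). IMR32, a separate table with another pair of ASOs, was not part of this test.

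The rest of the pathway was read from 6 lists, of which the arm of PERK moved most evenly. EIF2AK3, the PERK sensor itself, rose with ASO2 from 373.4 ± 14.5 to 610.9 ± 32.0 in NGP (SD, n = 3; log2 fold change of 0.71, adjusted p = 4.65e-08, limma). The same ASO took it from 231.6 ± 15.6 to 405.2 ± 36.5 in SK-N-BE(2)c (0.80, adjusted p = 2.77e-08, limma). With ASO10 it was 404.3 ± 15.1 in NGP (0.11, adjusted p = 0.238) and 285.6 ± 8.19 in SK-N-BE(2)c (0.30, adjusted p = 0.0085, limma). In IMR32 it stood at 486.4 ± 21.2 with NCA, 511.1 ± 17.0 with ASO1 and 551.2 ± 33.2 with ASO2, and the ASO2 call (0.18, adjusted p = 0.022, limma) was lost without any 1 of 3 libraries (ASO2 replicate 4, NCA replicates 1 and 3; down to 0.14), with libraries set to the same total (0.15, adjusted p = 0.075), with no minimum (adjusted p = 0.0555) and by DESeq2 (adjusted p = 0.0501). Of the 8 genes of the PERK list 7 were tested in each line, and those called were all higher: 4 with ASO1 and 5 with ASO2 in IMR32, 6 with each ASO in NGP and 7 with each in SK-N-BE(2)c. Over all genes, in both directions, 28.0% and 32.4% were called with these ASOs in IMR32. For ASO2 and ASO10 the shares were 58.7% and 54.4% in NGP, and 67.0% and 58.9% in SK-N-BE(2)c. The list's median was between 0.29 and 0.83. PPP1R15A, a phosphatase subunit that ends the PERK signal, went from 377.7 ± 9.97 with NCA to 1236 ± 135 with ASO1 in IMR32 (n = 4; 1.70, adjusted p = 5.74e-12, limma). DDIT3, also called CHOP, a transcription factor tied to cell death, rose there with both ASOs (0.98 and 1.00). ATF3, a stress-induced transcription factor, rose by 1.16 with ASO2 and 1.49 with ASO10 in NGP. TRIB3, a pseudokinase induced by CHOP, was 1.60 higher with ASO10 in SK-N-BE(2)c, from 1770 ± 326 to 5343 ± 637 (adjusted p = 2.07e-14, limma). These are among the larger changes of the list. DDIT3 was not called with ASO2 in NGP (0.11), nor TRIB3 with ASO1 in IMR32 (0.09). CHAC1 was at -0.04 with ASO1 and -0.18 with ASO2 in IMR32, not called. ATF4 was called higher in every comparison but ASO2 in IMR32 (0.13, adjusted p = 0.252, limma). CHAC1 and ATF4 were chosen after their values were seen. Several of these genes also answer to other stress kinases that act on ATF4, so the list is not particular to the ER.

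Other regulators of the IRE1 and ATF6 arms fell at least as often as they rose. Of 7 such genes 6 were tested, and 0, 0, 2, 1, 2 and 1 were higher and 2, 3, 3, 2, 4 and 1 lower, in the order IMR32 ASO1, IMR32 ASO2, NGP ASO2, NGP ASO10, SK-N-BE(2)c ASO2 and SK-N-BE(2)c ASO10. In this order 28.0%, 32.4%, 58.7%, 54.4%, 67.0% and 58.9% of all genes were called. The counts of the lists below have the same shares beside them. MBTPS2, the site-2 protease that cuts ATF6 in the Golgi, fell with both ASOs in each line. In SK-N-BE(2)c it went from 654.7 ± 15.1 with NCA to 436.9 ± 15.6 with ASO2 (-0.58, adjusted p = 1.57e-07, limma) and 465.0 ± 25.5 with ASO10 (-0.49, adjusted p = 3.49e-06, limma). In NGP its log2 fold change was -0.29 with each ASO, and both calls were lost without NCA replicate 3 (-0.23 in each), the first also without ASO2 replicate 1. In IMR32 it was -0.36 with ASO1 and -0.26 with ASO2, the second lost without any 1 of 4 libraries (ASO2 replicates 2 and 4, NCA replicates 1 and 2; -0.24 to -0.20). ATF6B, the paralogue of ATF6, fell in NGP from 728.5 ± 64.1 with NCA to 423.2 ± 11.2 with ASO2 (-0.78, adjusted p = 5.34e-09, limma) and 596.8 ± 6.47 with ASO10 (-0.28, adjusted p = 0.0034, limma). Elsewhere ATF6B fell with ASO2 alone, by log2 fold changes of -0.96 in SK-N-BE(2)c (adjusted p = 1.03e-11) and -0.27 in IMR32 (adjusted p = 0.00178, limma), against -0.11 with ASO10 (adjusted p = 0.22) and -0.07 with ASO1 (adjusted p = 0.449), which were not called.

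ER chaperones outside the 10 genes were mixed. Of 9 genes on that list, all tested, 2, 3, 3, 1, 4 and 1 were higher and 2, 1, 1, 2, 1 and 5 lower, in the same order of comparisons. CALR, or calreticulin, a lectin chaperone, rose in IMR32 from 5848 ± 251 with NCA to 7475 ± 398 with ASO1 (0.35, adjusted p = 3.02e-05, limma) and 6848 ± 396 with ASO2 (0.23, adjusted p = 0.00222, limma). With ASO2 CALR was also higher, by 0.25 for NGP and 0.18 for SK-N-BE(2)c, and not called with ASO10 there (0.09 and -0.06). The SK-N-BE(2)c value with ASO2 rests on the authors' scaling, since the same total shifted the median of all genes by -0.14. MANF, a small secreted ER protein, was 0.20 higher with ASO1 and 0.21 higher with ASO2 in IMR32. The ASO1 call was lost without ASO1 replicate 1 (0.14, adjusted p = 0.0621, limma). With ASO10 in SK-N-BE(2)c MANF fell (-0.16, adjusted p = 0.0457, limma). SIL1, a nucleotide exchange factor of HSPA5, fell in all 3 lines with both ASOs, most with ASO10 in NGP, from 159.8 ± 7.87 to 78.0 ± 5.30 (-1.03, adjusted p = 6.32e-07, limma), and least with ASO1 in IMR32 (-0.23, adjusted p = 0.0155, lost without ASO1 replicate 2 or NCA replicate 3). HYOU1, which shares this role, rose in 4 of the 6 comparisons. SDF2, the paralogue of SDF2L1, had the largest change of the list and was chosen after its values were seen, since its direction differed between ASOs. It fell with ASO10 in NGP (-1.68, adjusted p = 7.22e-13, limma) and SK-N-BE(2)c (-1.55, adjusted p = 4.14e-14, limma). With ASO2 it rose in SK-N-BE(2)c (0.35, adjusted p = 0.00117, limma) and was at 0.08 in NGP (adjusted p = 0.496), and in IMR32 it was not called with either ASO (0.21 and 0.17).

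Of 7 genes of disulfide formation, 1, 3, 4, 2, 3 and 2 were higher and 0, 0, 1, 0, 1 and 1 lower. The list's median with ASO10 in SK-N-BE(2)c was -0.12, against -0.03 over all genes. P4HB, the protein disulfide isomerase PDI, rose with both ASOs in every line, from 6264 ± 284 with NCA to 8390 ± 166 with ASO2 and 8799 ± 242 with ASO10 in SK-N-BE(2)c (0.42 and 0.49, adjusted p = 1.12e-08 and 1.18e-09, limma). PRDX4, the ER peroxiredoxin, was 0.72 and 0.49 higher in NGP and 0.86 and 0.34 higher in SK-N-BE(2)c with ASO2 and ASO10. ERO1A, the oxidase that recharges PDI, fell in SK-N-BE(2)c (-0.23 with ASO2 and -0.33 with ASO10, adjusted p = 0.00241 and 4.92e-05, limma), and rose with ASO2 in NGP (0.18, adjusted p = 0.033, limma). PDIA4 thus fell with ASO2 in the same NGP and SK-N-BE(2)c libraries in which P4HB rose.

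ER-associated degradation, the removal of misfolded proteins, had 1, 2, 6, 2, 6 and 4 of 10 tested genes higher and 1, 2, 2, 1, 3 and 3 lower. HERPUD1, a membrane component of that machinery with an ERSE-II match of its own, had the largest rise of the list. It went from 1104 ± 13.7 with NCA to 2346 ± 103 with ASO2 and 1949 ± 90.5 with ASO10 in NGP (1.09 and 0.82, adjusted p = 7.97e-14 and 1.18e-11, limma). In SK-N-BE(2)c it went from 901.9 ± 57.5 to 1742 ± 88.2 and 1725 ± 93.8 (0.95 and 0.94, adjusted p = 3.61e-13 and 1.02e-12, limma). In IMR32 HERPUD1 was 0.47 higher with ASO1 and not called with ASO2 (0.13, adjusted p = 0.16). EDEM1, which takes misfolded glycoproteins out of the folding cycle, was 0.29 and 0.32 higher in NGP. With ASO10 in SK-N-BE(2)c it was 0.58 higher (adjusted p = 7.12e-08, limma), with ASO2 there at 0.05 and in IMR32 at -0.08 and -0.11, all not called. Its relative EDEM3 was lower in SK-N-BE(2)c (-0.97 with ASO2 and -0.30 with ASO10) and with ASO2 in NGP (-1.03, adjusted p = 1.43e-11, limma), where ASO10 gave -0.13 (adjusted p = 0.135). SYVN1, the ubiquitin ligase HRD1, rose in SK-N-BE(2)c by 0.40 with ASO2 and 0.23 with ASO10, the second lost without ASO10 replicate 2 or NCA replicate 3 (0.18 in each). EDEM3 also fell in IMR32 (-0.17 and -0.37), the ASO1 call lost without ASO1 replicate 4 or NCA replicate 3 (-0.11 and -0.16).

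Translocation into the ER and export from it had 2, 4, 4, 3, 5 and 0 of 9 genes higher and 2, 1, 2, 4, 2 and 5 lower. SEC31A, a coat subunit of export vesicles, rose in IMR32 (0.25 and 0.32) and fell with ASO10 in NGP (-0.26, adjusted p = 0.000126) and SK-N-BE(2)c (-0.31, adjusted p = 1.63e-05, limma). SRPRB, part of the signal recognition particle receptor, rose for SK-N-BE(2)c with ASO2 (0.50), for NGP with both ASOs (0.47 and 0.27) and for IMR32 with ASO1 (0.20). SEC63, a J-domain protein of the translocon that recruits HSPA5, fell in IMR32 (-0.20 with ASO1 and -0.32 with ASO2) and in SK-N-BE(2)c (-0.73 with ASO2 and -0.20 with ASO10). In NGP it fell with ASO2 (-0.32, adjusted p = 0.00107, limma) and rose with ASO10 (0.23, adjusted p = 0.0162, limma). The smaller SEC63 values were lost without ASO1 replicate 3 in IMR32 (-0.17, adjusted p = 0.0568) and without ASO10 replicate 2 or NCA replicate 3 in SK-N-BE(2)c (-0.13 and -0.16, limma) or by DESeq2 (-0.16, adjusted p = 0.0871). All of these lists were drawn up with earlier results of these data known, and their counts stand beside the shares of all genes given above.

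Genes that carry either ER stress element in the searched window moved in both directions. Counting the 6 of the 10 genes that have one, 29 such genes were tested in IMR32 and NGP and 30 in SK-N-BE(2)c. ASO1 in IMR32 gave 8 higher and 2 lower, beside 28.0% of all genes called, and ASO2 there gave 11 and 2, beside 32.4%. For NGP, ASO2 gave 12 higher and 6 lower, beside 58.7%, and ASO10 gave 5 and 7, beside 54.4%. For SK-N-BE(2)c, ASO2 gave 13 higher and 3 lower, beside 67.0%, and ASO10 gave 6 and 9, beside 58.9%. Among the ERSE genes, CANX, the membrane lectin chaperone calnexin, and SERP1, which acts at the translocon, were higher with ASO2 in all 3 lines (0.26, 0.20 and 0.38 for CANX, and 0.31, 0.29 and 0.16 for SERP1, in the order IMR32, NGP and SK-N-BE(2)c). With ASO10, SERP1 was at -0.08 in NGP (adjusted p = 0.317) and fell to -0.31 in SK-N-BE(2)c (adjusted p = 9.74e-05, limma). CANX and SERP1 were chosen here after their values were seen. The SK-N-BE(2)c counts and values with ASO2 rest on the authors' scaling. Setting libraries to the same total shifted the median of all genes there by -0.14, close in size to the SERP1 rise of 0.16.

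Within each line the 10 genes varied together only in part. Over the 45 pairs of genes, Pearson's r of log2 values across libraries had a median of 0.33 over the 12 IMR32 libraries, 0.03 over the 9 of NGP and -0.06 over the 9 of SK-N-BE(2)c. These values describe libraries that share 1 control group per line and differ by treatment, and they were given no test. XBP1 and ERN1 had the highest r of all pairs for NGP (0.97) and SK-N-BE(2)c (0.96), and 0.19 in IMR32. HSPA5 went with HSP90B1 and with DNAJB9 in IMR32 (0.92 with each), while HSPA5 and HSP90B1 had -0.32 for NGP and -0.34 for SK-N-BE(2)c. The lowest values were ATF6 with DNAJB9 in IMR32 (-0.94), ATF6 with CRELD2 in NGP (-0.89) and ATF6 with HYOU1 in SK-N-BE(2)c (-0.95). Of all other genes tested, those with the highest r to HSPA5 in IMR32 were ZC3H14 (0.94), ANKRD12 (0.94), HSPA8 (0.93), P4HA1 (0.93) and PGAP6 (0.92). In NGP they were TSSC2 (0.94), YIPF3 (0.93), TMEM181 (0.93), IMPDH1P5 (0.93) and NPIPP1 (0.92), and in SK-N-BE(2)c NDUFB2-AS1 (0.94), ENSG00000263731 (0.91), ENSG00000232611 (0.90), PLIN1 (0.89) and ZGLP1 (0.89). No gene was on more than 1 of these lists, and those named as pseudogenes may share reads with their parent genes. Some had low levels in SK-N-BE(2)c, where HSPA5 itself moved by 0.05 with ASO2 and 0.15 with ASO10. With ASO2, ASO10 and NCA there, means were 4.18, 22.25 and 3.98 for PLIN1 and 13.0, 18.1 and 9.385 for NDUFB2-AS1.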

How the data were processed

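RNA was measured in 30 libraries, grouped by their titles. Libraries were made with a stranded total RNA kit or a stranded mRNA kit, per the labels' protocols, which do not say which library had which. FastQC 0.11.8, cutadapt 1.18, STAR 2.6.0, HTSeq 0.6.1 and DESeq2 1.42.0 and the builds hg19 and GRCh37 are named in the submitters' processing notes. The authors deposited 1 table a line of normalized counts, a signal equal to the count divided by a size factor (0.811 to 1.2, recovered from the values). Whole reads were recovered from 100% of values within 0.01 of a whole number. No column was left unused (0 columns). In IMR32, 174 entries (0.172% of values) without an Ensembl ID were left out. In NGP and SK-N-BE(2)c, control replicate 1 and replicates 2 and 3 carry 2 spellings, and another oligonucleotide cannot be told apart from another name.

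The main test was limma 3.58.1 (R 4.3.3) on log2(value + 1) with a mean-variance trend, 1 mean per group, all groups of a line, and genes with a mean of at least 10. The difference between NGP and SK-N-BE(2)c was fitted over both. Alternatives were a pseudocount of 0.5 or 5, no minimum, equal totals, only the groups compared, a log2 fold change of at least 1, edgeR 4.0.16 and DESeq2 1.42.0 on recovered reads, the replicate number as a block, and leaving out each library. The test was checked on simulated counts. Locations and exon lengths are from GENCODE 29 (GRCh38), and promoter windows from RefSeq (GRCh38.p14), in which all 10 genes matched by symbol. No coordinates of the files' own build are given.

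Same-numbered libraries were compared by the correlation of their deviations from group means. In IMR32 ASO1 and NCA these were 0.055 to 0.318 over genes with a mean of at least 10 and 0.112 to 0.564 at 50, so that the pairing of the numbers there depends on the minimum, and no other pair of groups had every value over 0.1. The genes named were all 10, EIF2AK3, and from each list and line up to 2 a direction called with one sign for both ASOs, by the largest mean change; the 5 genes most like HSPA5 were taken by Pearson's r. One adrenergic marker of the list is not reported here and was left out of its sums. The 10 genes and all lists were chosen with earlier results of these data known.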

Additional observations from a re-analysis of the deposited data

Results flagged for a closer look

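XBP1 in IMR32 NCA replicate 1 had a normalized count of 1325, and ERN1 in the same library 562.8, each far above the other 3 controls, with a gap to the nearest of 0.845 and 0.946 of the group's range. Of 30 groups of 4 libraries tested in this way, about 1 in 20 would be flagged by chance.

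Line differences were flagged for 3 effects. The ASO2 effect differed between SK-N-BE(2)c and NGP by -0.45 for XBP1 and by -0.54 for ERN1, and the ASO10 effect by 0.34 for HYOU1.

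PDIA4 with ASO2 lay above every control in IMR32 (log2 fold change of 0.14) and below every control of NGP (-0.59) and of SK-N-BE(2)c (-0.57). That difference between IMR32 and the other lines was not tested.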

How the results depend on the processing

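With a pseudocount of 0.5 or 5, all 93 effects of the 10 genes (every contrast of a line, plus the 3 called line differences) kept direction and call. edgeR and DESeq2 each added 1 call, no minimum on low values ended 5, and fitting only the groups compared ended 1 and added 3. Setting libraries to the same total ended 7 calls, added 3 and turned 6 effects. None of the effects that turned was called with all libraries or under the alternative that turned it.

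A log2 fold change of at least 1, when required, left 0 of the 10 genes in each of the 11 comparisons. The same total left 1 gene for IMR32 ASO1 against ASO2. The ASO10 line difference had 2 genes with a pseudocount of 5, the same total, DESeq2 or the replicate block. Under the same total the turned effects were PDIA4 for IMR32 ASO1 against ASO2 (0.0123), HSPA5 (-0.0866), HSP90B1 (-0.0735) and SDF2L1 (-0.0709) for SK-N-BE(2)c ASO2, and PDIA4 (-0.0218) and CRELD2 (-0.0182) for SK-N-BE(2)c ASO10. The cause was not tested.

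Without any 1 library, counts of called genes were 1 to 3 for IMR32 ASO1 against ASO2, 2 to 4 for the ASO2 line difference, 1 to 3 for the ASO10 line difference, and 6 to 9 for NGP ASO2 against NCA. Effects that turned ranged as follows: with IMR32 ASO1, SDF2L1 from -0.0027 to 0.1432 and CRELD2 from -0.0473 to 0.136; with IMR32 ASO2, XBP1 from -0.087 to 0.0044. HSPA5 ranged from -0.0471 to 0.0508 between ASO1 and ASO2 and from -0.057 to 0.0037 between NGP ASO2 and ASO10. With SK-N-BE(2)c ASO2 the ranges were -0.0233 to 0.104 for HSPA5, -0.0008 to 0.1503 for HSP90B1 and -0.0461 to 0.2184 for SDF2L1. With SK-N-BE(2)c ASO10 they were -0.0587 to 0.0412 for PDIA4 and -0.0652 to 0.114 for CRELD2.

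With the replicate number as a block, the called genes numbered 6 for IMR32 ASO1 against NCA in place of 4, and the block ended no call of the 10 genes. It added HSP90B1 for IMR32 ASO1 against ASO2 (adjusted p = 0.0225, limma), PDIA4 for NGP ASO10 (adjusted p = 0.037, limma) and ERN1 for NGP ASO2 against ASO10 (adjusted p = 0.0466, limma), where the numbers do not pair the libraries by the correlation of their deviations.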

Other observations

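SEC61A1, the pore subunit of the channel through which proteins enter the ER, moved in opposite directions with the 2 ASOs. It was chosen after its values were seen. In NGP it went from 3897 with NCA to 5492 with ASO2 (log2 fold change of 0.50, adjusted p = 5.75e-09, limma) and to 1616 with ASO10 (-1.27, adjusted p = 3.66e-16, limma). In SK-N-BE(2)c it went from 6045 to 8949 with ASO2 (0.57, adjusted p = 9.81e-11, limma) and to 3009 with ASO10 (-1.01, adjusted p = 1.84e-15, limma). In IMR32 it stood at 1430 with NCA, 1502 with ASO1 (0.07, adjusted p = 0.255) and 1729 with ASO2 (0.27, adjusted p = 0.000101, limma).

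SEL1L, the partner of the ubiquitin ligase SYVN1, was likewise chosen after its values were seen. With ASO2 it was 0.69 higher in NGP and 0.68 higher in SK-N-BE(2)c (adjusted p = 3.52e-08 and 1.04e-09, limma). With ASO10 it was at -0.02 in NGP (adjusted p = 0.804) and -0.18 in SK-N-BE(2)c (adjusted p = 0.0251, limma).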
